A study of Mus musculus with 11 samples.

Results

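The 9 genes for transcription regulators of the macrophage (mac) lineage described here, across 5 tissues and after deletion of Zeb2, are Spi1, Irf8, Runx1, Maf, Cebpa, Cebpb, Id1, Id2 and Id3. They were chosen by name, and all 9 were read in the 11 libraries, out of 27998 genes in each count table. The libraries are droplet single-cell RNA-seq (10x, counted near the 3′ end as unique molecular identifiers, UMIs) of sorted mouse macs. The brain gave microglia, the liver Kupffer cells (KCs), the lung alveolar macs (AMs), the colon colonic macs (CMs) and the spleen splenic macs (SMs). Each tissue has 1 WT library, from Zeb2fl/fl mice that carry the floxed alleles without CRE, and 1 Zeb2KO library. GEO's genotype label gives Fcgr1-crexZeb2fl/fl for all 5 Zeb2KO libraries, whereas the study's methods name Clec4f-cre for KCs, Itgax-cre for AMs and Fcgr1-cre for microglia, CMs and SMs. One further WT KC library came from Nr1h3fl/fl mice, also without CRE, and serves here as a second liver library without a Zeb2 deletion. Controls were littermates, the mice were young adults by the general age range in the study's methods, with no age given for single libraries, and both Fcgr1-cre and Itgax-cre also act in other immune cells, as Clec4f-cre does in a small population of B cells.

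PU.1, the product of Spi1, opens mac enhancers and is needed for the lineage to form, with IRF8 as a partner factor and RUNX1 acting earlier, in blood stem and progenitor cells. C/EBPα and C/EBPβ, encoded by Cebpa and Cebpb, drive myeloid differentiation and inflammatory genes, and c-MAF, encoded by Maf, holds mature macs in a resting, non-dividing state. ID1, ID2 and ID3 have no DNA-binding domain. They pair with E proteins and keep them off DNA, and their genes are classic targets of BMP and TGF-beta signalling through SMADs. ZEB2 binds SMADs and represses genes through CACCTG-like E-boxes, and ID3 is known as a regulator of KC identity.

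After filtering, 2830 to 6974 cells per library remained (microglia 2830 WT and 3243 Zeb2KO, CMs 4189 and 3483, KCs 3832 and 3806, AMs 6974 and 6252, SMs 2970 and 2827, and 3440 Nr1h3fl/fl WT KCs), with 7279263 to 41903045 UMIs per library. Median UMIs per cell were lowest, at 2162.5, for SMs of the WT and highest, at 9348, for WT CMs, and the AM pair was uneven, at 3587 in WT and 5682 in Zeb2KO. Clusters led by markers of other cell types made up to 28.3% of a library (WT SMs) and were left out. Their mean macrophage-marker value (log2 scale) ran from -0.035 in a CM fibroblast cluster to -5.72 in an AM endothelial cluster. The former made 3.41% of the WT and 9.22% of the Zeb2KO CM library. A KC endothelial cluster at -0.063 made 4.07% of the WT and 1.51% of the Zeb2KO library. Macs among the cells left out were not separated. Pairs of libraries shared at most 76 barcodes, 1.45% of the smaller library at most. Each tissue's own markers were highest in its own libraries, as with microglial markers, which summed to 22277 and 14667 CPM (UMIs of a gene scaled to a fixed library total) in the microglia libraries and to at most 390.1 CPM elsewhere. Zeb2 itself was at 312 to 757 CPM in the 5 WT libraries and 478 to 1747 CPM in the Zeb2KO libraries. A 3′ count reads the end of the transcript and so does not check the deletion. By PCR and an RNA flow assay, the study found Zeb2 deleted in SiglecF+ KCs and EpCam+ AMs. SiglecF- KCs and EpCam- AMs of the same mice had kept a copy, and the study reports Zeb2+/- macs in every organ but the brain. Zeb2KO here names a library and its cells, not a deletion in each cell. KCs and AMs were read on a NextSeq500 and the other 3 tissues on a HiSeq. Xist was at 0 to 0.04 CPM in the KC and AM libraries and at 1132 to 1878 CPM in the others, while Y-linked Ddx3y was at 77.5 to 151 CPM in the former and 0 in the latter. Sequencer and mouse sex therefore split the tissues in the same way, were the same within each pair, and cannot be told apart from the tissue. With 1 library per group, a level has an exact 95% Poisson interval for counting error only and no replicate error. In a sum over cells, fewer cells with a transcript and less RNA per cell cannot be told apart, so the share of cells with a UMI is given as well.

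On GRCm38/mm10, Spi1 lies at chr2:91082390-91115756, Id1 at chr2:152736251-152737410 and Cebpb at chr2:167688915-167690418, all on the plus strand. Cebpa is at chr7:35119293-35121928, Irf8 at chr8:120736358-120756694 and Id3 at chr4:136143497-136145755, on the plus strand, whereas Maf at chr8:115682942-115707794, Id2 at chr12:25093799-25097140 and Runx1 at chr16:92601466-92826149 are on the minus strand. Overlapping genes took few UMIs, with the antisense Gm15655 in Maf at most at 3.16 CPM, the antisense Gm26626 in Runx1 at most at 0.19 CPM and Gm20388 over Irf8 at 0 CPM in every library. Tmem189, which overlaps Cebpb on the opposite strand, was at 32.1 to 119 CPM. The study counted reads with Cell Ranger, and whether this used strand is not stated in the sources used here. Whether reads of Tmem189 entered the Cebpb count was not tested.

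The sequences before the start sites of Cebpa, Irf8 and Id2 are shown because these were the 3 genes with the smallest p over the 5 tissues. They are RefSeq promoters (GRCm38.p6), 5′ to 3′ on the gene's strand, ending at the base before the start (for Id2, cut where an annotated exon begins). The RefSeq start of Id2 and the second one of Irf8 lie inside the longer genes that GENCODE annotates, so these stretches are upstream of an internal start and not of the gene's outer end. Capitals mark the E-box CACCTG or its reverse complement CAGGTG, and the palindrome GGCGCC, a SMAD-binding motif.
Cebpa chr7:35119043-35119292, plus strand: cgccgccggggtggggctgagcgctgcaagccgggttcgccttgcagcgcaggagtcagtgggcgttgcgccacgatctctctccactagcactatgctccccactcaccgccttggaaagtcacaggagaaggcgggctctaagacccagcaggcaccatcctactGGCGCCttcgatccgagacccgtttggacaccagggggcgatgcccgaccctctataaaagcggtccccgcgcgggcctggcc
Irf8 first start chr8:120736108-120736357, plus strand: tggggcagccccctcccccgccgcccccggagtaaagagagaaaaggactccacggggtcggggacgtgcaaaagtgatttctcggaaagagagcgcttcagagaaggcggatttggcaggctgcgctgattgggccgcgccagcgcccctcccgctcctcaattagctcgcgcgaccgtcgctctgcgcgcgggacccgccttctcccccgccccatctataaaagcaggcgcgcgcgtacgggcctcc
Irf8 second start chr8:120738389-120738638, plus strand: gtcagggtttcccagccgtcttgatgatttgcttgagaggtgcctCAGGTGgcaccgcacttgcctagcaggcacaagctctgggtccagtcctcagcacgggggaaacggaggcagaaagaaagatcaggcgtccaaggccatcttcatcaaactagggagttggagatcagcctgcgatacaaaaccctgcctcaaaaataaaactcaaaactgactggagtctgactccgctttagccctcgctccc
Id2 chr12:25096254-25096342, minus strand: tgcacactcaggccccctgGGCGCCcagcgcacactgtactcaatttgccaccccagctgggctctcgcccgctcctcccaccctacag
In windows from 250 bases before to 50 bases after a start, searched on both strands, CACCTG was present in 20.2% of 32851 RefSeq promoters and GGCGCC in 11.9%. RefSeq promoters matched 6 of the 9 genes, with 8 entries. CACCTG was in 2 of these 8, the second Irf8 start at position -205 from the start and a Runx1 start at -136. GGCGCC was in 4, at -83 in Cebpa, -231 in Id2, 11 in Cebpb and 35 in the other Runx1 start. The PU.1 motif GAGGAAGT, in 3.2% of all promoters, was in none of the 8, and TATAAA, in 13.6%, was in those of Cebpa, Cebpb and the first Irf8 start. A match is a run of letters in this window and not a measured site.

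The 9 genes spanned unequal ranges between tissues, given here as ratios of CPM without the added 1 used for genotype differences. For Id1, Id3 and Maf the lowest WT tissue lay under 20 CPM, at 25, 19 and 23 UMIs. The sizes of their ranges rest on these few counts. In WT macs, the highest tissue exceeded the lowest 3.37-fold for Spi1, 5.27-fold for Irf8, 16.9-fold for Id2, 19.1-fold for Runx1, 29.0-fold for Cebpa, 45.3-fold for Cebpb, 58.0-fold for Id1, 595-fold for Id3 and 1425-fold for Maf. All 9 passed the test of tissue in edgeR's quasi-likelihood fit (adjusted p from 1.7e-04 for Cebpa to 0.0167 for Id2), among 82.5% of 12033 genes tested, so passing does not set the 9 apart. With the SM pair left out, Spi1 (adjusted p = 0.0748) and Id2 (0.0621) no longer passed in edgeR, and with the CM pair left out Id2 did not (0.0505), while 63.8% and 74.7% of all genes passed in these runs. With the NextSeq500 pairs alone, 4 of the 9 passed, beside 26.3% of all genes.

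**Figure D1:**
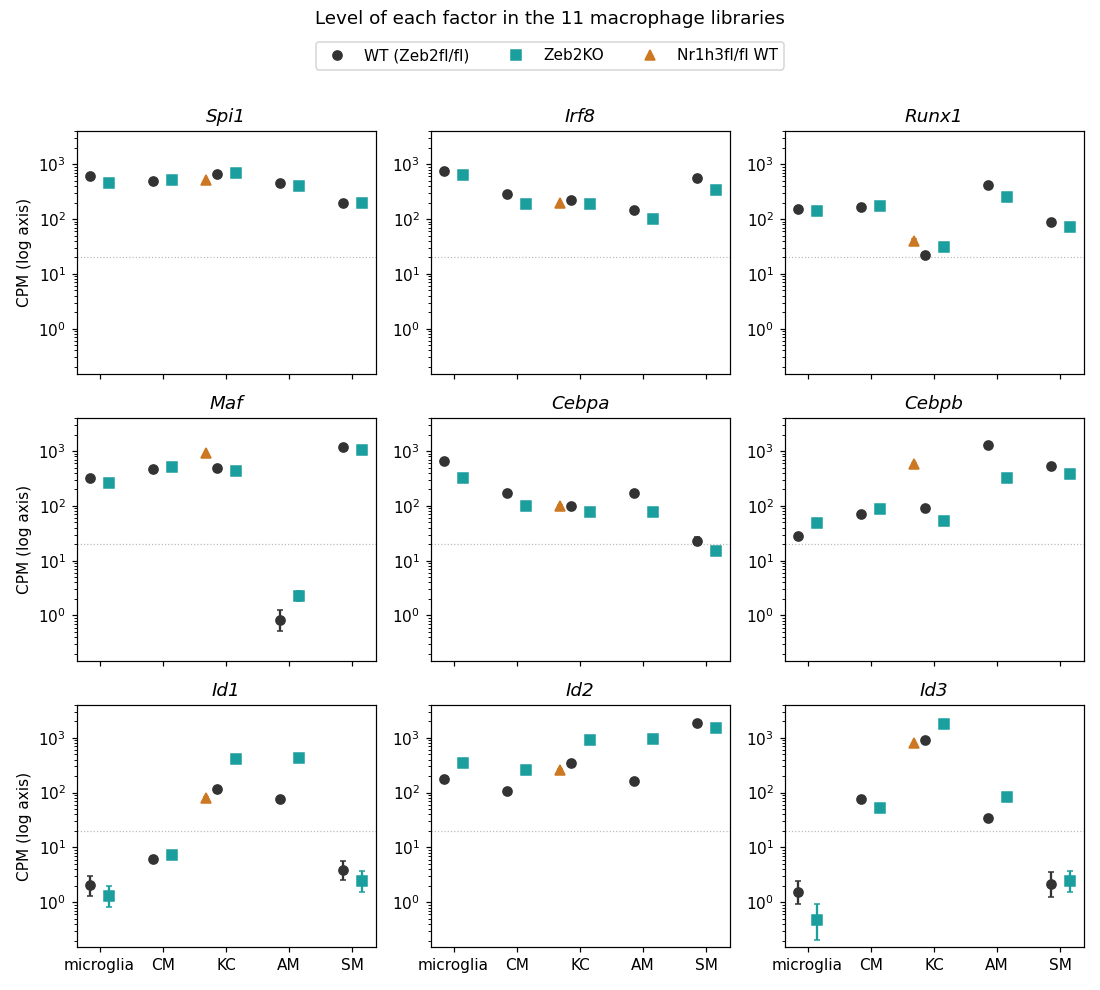
Level of each gene in CPM (log axis) in the 11 libraries, with WT as circles, Zeb2KO as squares and Nr1h3fl/fl WT as triangles. Bars are exact 95% Poisson intervals, often smaller than the symbol, and the dotted line is the 20 CPM floor for calls. Maf sits at 0.838 and 2.31 CPM in AMs and above 260 CPM elsewhere, and Id1 and Id3 are under 4 CPM in microglia and SMs.

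Spi1 was the most even of the 9. Its level was 614 CPM in WT and 451 CPM in Zeb2KO microglia, 503 and 521 CPM in CMs, 662 and 681 CPM in KCs, 464 and 402 CPM in AMs, and 197 and 200.05 CPM in SMs. The order in WT macs was KCs, microglia, CMs, AMs and SMs, with no neighbouring intervals that overlapped, and SMs stood well below the rest. The Zeb2KO over WT difference in log2(CPM + 1) was -0.45 in microglia, -0.21 in AMs and 0.03 to 0.05 in the other 3 tissues. The 2 WT KC libraries differed by -0.38 (508 CPM in Nr1h3fl/fl WT), which only the microglia difference exceeded in size. Over the 5 pairs the common change was -0.05 ± 0.11 (log2, adjusted p = 0.861 in edgeR). Here and below, the value after ± is an SE derived from the test. It is the size of the change divided by the square root of the test's F statistic.

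Irf8, the PU.1 partner, was lower in Zeb2KO than in WT macs of all 5 tissues. WT and Zeb2KO levels were 768 and 640.4 CPM in microglia, 286 and 185 CPM in CMs, 224 and 189.7 CPM in KCs, 146 and 99.5 CPM in AMs, and 552 and 342 CPM in SMs. The differences ran from -0.24 in KCs to -0.69 in SMs on the log2 scale and none reached the 2-fold call. In KCs the Nr1h3fl/fl WT library, at 193 CPM, was as far below the other WT library as the Zeb2KO library was. The common change was -0.42 ± 0.12 (unadjusted p = 0.0107, adjusted p = 0.278 in edgeR), so it did not pass. Being lower in all 5 tissues is itself not rare, since 7.05% of 3745 genes considered in every tissue were, and with 5 pairs the exact sign test cannot go below p = 0.0625.

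Runx1 was highest in AMs, at 417 CPM in WT and 249 CPM in Zeb2KO. It was at 155 and 141 CPM in microglia, 169 and 175 CPM in CMs, 88.6 and 71.4 CPM in SMs, and only 21.8 and 31.0 CPM in KCs. The AM difference was -0.74 on the log2 scale, short of the call. In KCs, 11.7% of WT cells had a Runx1 UMI, beside 11.1% of the liver B cells left out of the same library (median 5275 and 3500 UMIs). B cells use Runx1 themselves, so their share sets no background level. In the spleen 18.4% of WT SMs had a Runx1 UMI, beside 16.7% of the B cells left out and 28.4% of the T and NK cells.

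Maf spanned the widest range of the 9 in WT macs, and Id3 did in Zeb2KO macs (3812-fold against 462-fold for Maf). The ratio for Id3 rests on 8 UMIs in Zeb2KO microglia. Maf was at 1195 CPM in WT and 1066 CPM in Zeb2KO SMs, 469.8 and 510.4 CPM in CMs, 492 and 436 CPM in KCs, and 320.0 and 264 CPM in microglia. In AMs 23 UMIs among 6974 WT cells gave 0.838 CPM, and 86 UMIs among 6252 Zeb2KO cells gave 2.31 CPM. Of those 86 UMIs, 53 lay in 1 cluster of 218 Zeb2KO AMs led by C1qa, C1qb and C1qc, where Maf reached 29.8 CPM. Between genotypes the 4 tissues that express Maf differed by -0.28 to 0.12 on the log2 scale, well under the difference of 0.91 between the 2 WT KC libraries (924 CPM in Nr1h3fl/fl WT).

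Cebpa was lower in Zeb2KO macs of every tissue, and by about the 2-fold limit in microglia and AMs. Its level was 666 CPM in WT and 318 CPM in Zeb2KO microglia, 172 and 100.03 CPM in CMs, 98.8 and 78.3 CPM in KCs, 169.9 and 75.8 CPM in AMs, and 22.9 and 15.02 CPM in SMs. Microglia stood above every other tissue in both genotypes, and the intervals of WT CMs and AMs overlapped. The log2 differences were -1.06, -0.78, -0.33, -1.15 and -0.58 in that order, 2.09-fold lower in microglia and 2.23-fold lower in AMs. With each library divided by its TMM factor, as in the edgeR test, they were -0.99 in microglia and -0.94 in AMs, both short of the limit. The 2 WT KC libraries differed by 0.03 (101 CPM in Nr1h3fl/fl WT). Over the 5 pairs the change was -0.74 ± 0.12 (unadjusted p = 5.2e-04, adjusted p = 0.173 in edgeR), the smallest p of the 9 genes, and it did not pass over all genes. DESeq2, run on the same sums, did call it (adjusted p = 1.3e-04). After each cell was thinned to 1000 UMIs, 42.7% of WT and 24.4% of Zeb2KO microglia had a Cebpa UMI, 15.5% and 7.65% of AMs, 14.3% and 8.96% of CMs, 9.24% and 7.67% of KCs, and 2.54% and 1.41% of SMs. Without thinning, the shares were 81.3% and 64.7% in microglia and 45.1% and 32.3% in AMs.

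Cebpb differed in both directions. WT and Zeb2KO levels were 1288 and 318 CPM in AMs, 526 and 383 CPM in SMs, 92.1 and 53.0 CPM in KCs, 70.8 and 87.1 CPM in CMs, and 28.5 and 48.2 CPM in microglia. AMs were highest in WT, and in the Zeb2KO libraries SMs were. The AM difference was -2.02 on the log2 scale, or 4.04-fold lower, and 97.6% of WT and 78.2% of Zeb2KO AMs had a UMI (72.1% and 30.5% after thinning). KCs and SMs were lower by -0.79 and -0.46, and microglia and CMs higher by 0.74 and 0.30. Cebpb also differed most between the 2 WT KC libraries, at 585 CPM in Nr1h3fl/fl WT, 6.30-fold over the Zeb2fl/fl WT library, with 85.5% and 36.3% of cells holding a UMI. That contrast, with no Zeb2 deletion in it, was larger than the Cebpb difference in any of the 5 Zeb2KO pairs. It lies between liver libraries of different floxed lines and does not measure the spread between AM libraries. The study reports reduced Cebpb in Zeb2-/- AMs.

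The Id genes, inhibitors of E proteins, were higher in Zeb2KO KCs and AMs. Id2 was at 345 CPM in WT and 894 CPM in Zeb2KO KCs, 163 and 955 CPM in AMs, 180.1 and 354 CPM in microglia, 108 and 255 CPM in CMs, and 1829 and 1483 CPM in SMs. In 4 of 5 tissues the Zeb2KO library was higher, 2.59-fold in KCs, 5.84-fold in AMs, 1.96-fold in microglia and 2.34-fold in CMs. SMs, which held the most Id2 in either genotype, differed by -0.30 on the log2 scale. Without the SM cluster led by S100a8, S100a9 and Camp the difference was -0.015. The common change of Id2 was 1.22 ± 0.42 (unadjusted p = 0.0242, adjusted p = 0.342 in edgeR) and did not pass, though DESeq2 called it (adjusted p = 0.0424). The thinned share of cells with an Id2 UMI was 26.9% in WT and 51.5% in Zeb2KO KCs, 13.7% and 48.8% in AMs, 11.02% and 22.6% in microglia, 8.40% and 16.8% in CMs, and 75.4% and 64.8% in SMs. Unthinned, the AM shares were 37.3% and 83.1%.

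Id1 was highest in KCs and AMs, and Id3 in KCs. Id1 was at 118 CPM in WT and 403 CPM in Zeb2KO KCs and 76.2 and 437 CPM in AMs, against 6.18 and 7.21 CPM in CMs, 3.85 and 2.47 CPM in SMs and 2.03 and 1.30 CPM in microglia. Id3 was at 917 and 1802 CPM in KCs, 34.8 and 84.8 CPM in AMs, 75.9 and 52.4 CPM in CMs, 2.20 and 2.47 CPM in SMs and 1.54 and 0.473 CPM in microglia. The Zeb2KO level was higher 3.40-fold for Id1 and 1.96-fold for Id3 in KCs, and 5.67-fold and 2.39-fold in AMs, while Id3 differed by -0.52 on the log2 scale in CMs. In SMs the share with an Id3 UMI was 0.539% of WT cells, below the 4.35% of splenic B cells (median 2162.5 and 2286.5 UMIs), which use Id3 themselves. In the liver the B cells left out carried Id3 in 68.8% of cells, against 89.6% of WT KCs. Thinned shares with an Id3 UMI were 52.9% in WT and 74.4% in Zeb2KO KCs, and for Id1 10.3% and 27.6% in KCs and 7.46% and 26.9% in AMs.

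In KCs all 3 Id genes were lower in the Nr1h3fl/fl WT library than in the other WT library (79.7 CPM for Id1, 259.7 CPM for Id2 and 796 CPM for Id3), so against it the Zeb2KO levels were higher by 2.32, 1.78 and 1.18 on the log2 scale. Liver B cells, left out as another type, differed in the same direction. In them Id1 was at 72.9 CPM in the WT library and 168 CPM in the Zeb2KO library, Id2 at 179 and 389 CPM and Id3 at 620.5 and 782 CPM. The mean macrophage-marker value (log2 scale) of this B cell cluster was -0.80, beside -3.09, -0.65 and -0.87 in splenic B cell clusters. Mac RNA in these barcodes was not separated. Clec4f-cre acts in a small population of B cells, and its part in these values was not tested. Among the KCs kept, 5 of 7 endothelial markers were higher in Zeb2KO than in either WT library, with Kdr at 6.33 CPM in WT, 16.5 CPM in Zeb2KO and 6.47 CPM in Nr1h3fl/fl WT and a median of the 7 at 7.56, 16.5 and 6.36 CPM. Cdh5 (378, 204 and 519 CPM) and Stab2 (80.6, 31.1 and 103 CPM) were lower and carried the sum, at 486, 299 and 642 CPM. The study counts Cdh5 among the core KC genes lost without Zeb2 or Nr1h3, so its level and the sum do not measure endothelial cells. T and NK cells, which use Id2, had 7 markers that summed to 1.23 CPM in WT and 1.53 CPM in Zeb2KO KCs and to 1.20 and 6.60 CPM in AMs. Dividing cells were 3.39% of WT and 11.2% of Zeb2KO KCs, and without them the log2 differences were 1.86 for Id1, 1.43 for Id2 and 1.03 for Id3. Immediate early and heat shock genes, 10 of 10 measured, summed to 1198 CPM in WT, 2278 CPM in Zeb2KO and 511 CPM in Nr1h3fl/fl WT KCs, and to 4692 and 4425 CPM in WT and Zeb2KO AMs. The part of any of these in the KC differences was not tested.

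**Figure D2:**
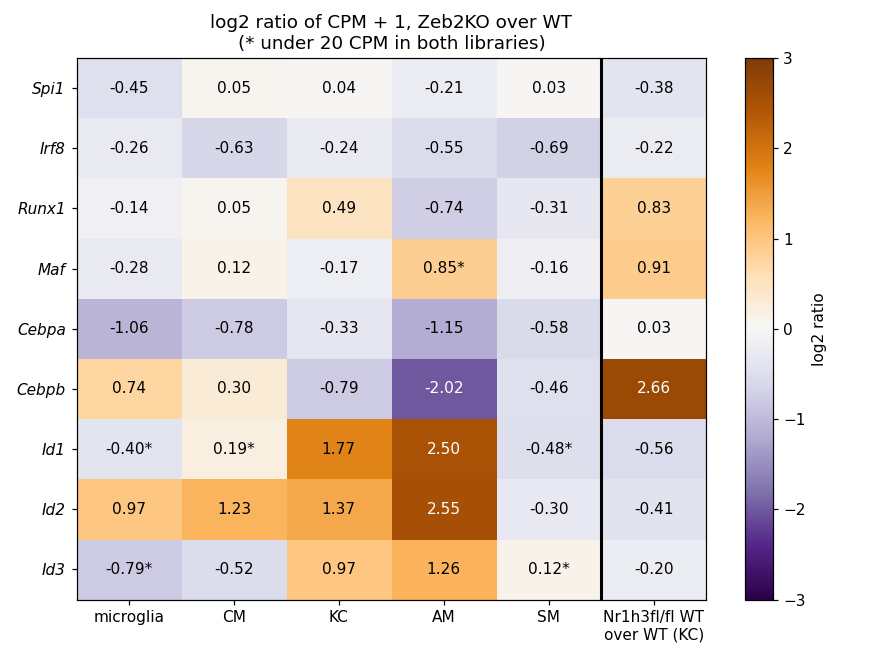
Zeb2KO over WT difference of the 9 genes as a log2 ratio of CPM + 1 in each tissue, with the Nr1h3fl/fl WT over WT difference of KCs in the last column. An asterisk marks genes under 20 CPM in both libraries. Cebpa and Irf8 are negative in all 5 tissues, Id2 is positive in 4, and the largest value, 2.66, is Cebpb between the 2 WT KC libraries.

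By the 2-fold rule, between 0 and 5 of the 9 genes were called in a tissue. In microglia 1 of 7 considered (Cebpa, lower) was called, beside 8.34% of 5922 genes called and 4.07% called lower. In CMs 1 of 8 (Id2, higher) was called, beside 1.64% called and 1.16% higher. KCs had 2 of 9 called (Id1 and Id2, higher), beside 4.82% and 3.56% higher. Id3 in KCs was just short of the limit at 0.97 (1.03, past it, without dividing cells), and Id2 in microglia was also just short. AMs had 5 of 8 called, Id1, Id2 and Id3 higher and Cebpa and Cebpb lower, beside 11.7% called, 4.35% higher and 7.33% lower. SMs had 0 of 7 called, beside 3.49%. With TMM factors, which moved all values by 0.074 in microglia and 0.22 in AMs on the log2 scale and the median of all genes considered from -0.31 to -0.080 in AMs, the one gene called in microglia was Id2 (1.04) in place of Cebpa, beside 8.54% of all genes, and AMs had 4 called, without Cebpa, beside 9.92%. Of all calls in AMs, 37.3% were higher by CPM and 60.4% with TMM factors. Genes under 20 CPM in both libraries were Id1 and Id3 in microglia and SMs, Id1 in CMs and Maf in AMs, and Cebpa in SMs was considered only through the WT library. At a 1.5-fold limit the counts were 6 in AMs, beside 35.5% of genes, 4 in KCs beside 11.6%, 3 in microglia beside 17.9%, 3 in CMs beside 5.34% and 1 in SMs beside 9.71%. Between the 2 WT KC libraries 1 of 9 was called (Cebpb), beside 1.35% of genes. Against the Nr1h3fl/fl WT library, 5 of 9 were called in Zeb2KO KCs (Id1, Id2 and Id3 higher, Maf and Cebpb lower), beside 8.33%. The median difference of the considered members and of all genes considered was -0.38 and -0.31 in AMs, -0.31 and -0.02 in SMs, -0.26 and -0.09 in microglia, 0.04 and 0.02 in KCs, and 0.05 for both in CMs.

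Across the 5 pairs, edgeR called 0 of the 9 genes and 0% of 12033 genes at an adjusted p of 0.05 (smallest adjusted p = 0.0647). At an unadjusted p under 0.05 it listed 3 of the 9 genes (Cebpa, Irf8 and Id2) beside 12.5% of all genes, and DESeq2 called 2 of the 9 (Cebpa and Id2) beside 3.2%. Within the 2 pairs read on the NextSeq500, the common changes were 2.26 for Id1, 2.08 for Id2, 1.24 for Id3, -1.30 for Cebpb, -0.64 for Cebpa and -0.28 for Irf8. Within the 3 HiSeq pairs they were -0.28 for Id1, 0.66 for Id2, -0.58 for Id3, 0.21 for Cebpb, -0.81 for Cebpa and -0.51 for Irf8. Cebpa and Irf8 were lower in all 5 pairs, so their sign in both sets was fixed in advance. Id2 was positive in both sets, and Id1, Id3 and Cebpb changed sign. Id1 was under 20 CPM in every HiSeq library, and Id3 was in those of microglia and SMs. The NextSeq500 pairs are the KCs and AMs. By the study's methods the CRE line therefore also differs between the sets, as does mouse sex, and these cannot be told apart. The share of all genes that kept their sign was not counted. Neither set gave a call in edgeR, with 4 and 2 of the 9 genes at an unadjusted p under 0.05, beside 6.93% and 8.69% of all genes.

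**Figure D3:**
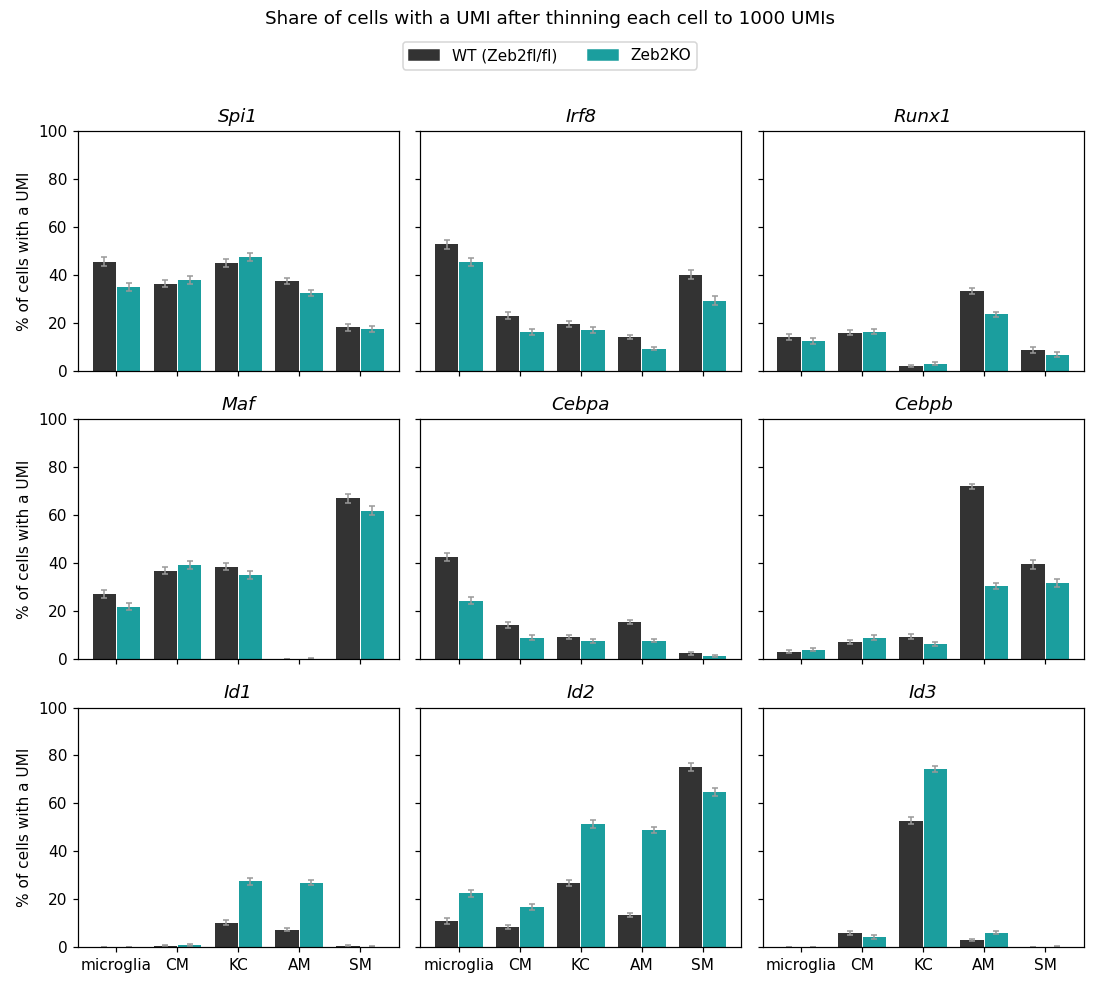
Share of cells with a UMI of each gene after every cell was thinned to 1000 UMIs, for WT and Zeb2KO libraries. Bars start at 0 and whiskers are exact 95% Clopper-Pearson intervals for counting error. The widest gaps are Cebpb in AMs, from 72.1% to 30.5%, and Id2 in AMs, from 13.7% to 48.8%, and 257 WT SMs shallower than 1000 UMIs were left out.

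The genes were also compared inside clusters built without them. Only clusters with at least 50 cells of each genotype were used, which left out every microglia cluster. This rule also left out Zeb2KO clusters without WT cells, such as the KC cluster led by Ms4a1, Ddit4 and Siglecf. How many of the Zeb2KO cells compared had kept a copy of Zeb2 was not tested. In the 20 clusters with at least 50 cells of both genotypes (9 of CMs, 5 of KCs and 3 each of AMs and SMs), Id2 was higher in the Zeb2KO cells of all 20, with a median log2 difference of 0.59. Only 0.201% of 3989 genes, 8 in number, were higher in all 20. The 3 SM clusters were among them, by 0.07 to 0.19, although the SM library as a whole was lower. In SMs, 718 Zeb2KO cells of a cluster led by S100a8, S100a9 and Camp held Id2 at 605 CPM, and only 15 WT cells fell there. Its 10 leading genes include the neutrophil markers Camp and Ngp and no SM marker. Neutrophil markers summed to 172 CPM in its Zeb2KO cells and 5.41 CPM in the other Zeb2KO SMs. In its 15 WT cells they summed to 9127 CPM, against 3.18 CPM in the other WT SMs. In the same 2 groups of Zeb2KO cells the 4 SM markers summed to 10983 and 27240.0 CPM. The 10 macrophage markers summed to 9947 and 9993 CPM there. Without this cluster Id2 differed by -0.015 in SMs in place of -0.30 and Spi1 by -0.11 in place of 0.025, and 0 of 7 were called, beside 2.36% of all genes. Cebpa was lower in 18 of the 20, with a median of -0.53, including 9 of 9 in CMs and 3 of 3 in AMs, and 0.652% of genes were lower in at least 18. Id1 was higher in 12 and Id3 in 11 of the 20. Both were higher in 5 of 5 KC and 3 of 3 AM clusters, by 0.33 to 0.66 for Id3 in KCs and 2.09 to 2.60 in AMs, whereas in CMs Id1 was lower in 6 of 9 and Id3 in 7 of 9, and in SMs each was lower in 2 of 3, at few UMIs. Irf8, lower in all 5 libraries, was lower in 13 of the 20 clusters, with 7 of 9 in CMs, 3 of 3 in AMs and 2 of 3 in SMs, but higher in 4 of 5 in KCs (median 0.02). Cebpb was lower in 5 of 5 KC and 3 of 3 AM clusters and higher in 3 of 3 SM clusters. Spi1, Runx1 and Maf were higher in 9, 11 and 10 of the 20. Clusters of a library share its preparation and are not replicates. Between the 2 WT KC libraries, Id2 was higher in 1 of 6 clusters and Cebpa in 4 of 6, while Cebpb and Maf were higher in 6 of 6. At the finer clustering resolution of 1.5, Id2 was higher in 21 of 23 clusters and Cebpa lower in 21. Other counts depended on the clustering: there Id1 was higher in 17 and lower in 5, Id3 higher in 15 and lower in 7, and Spi1 lower in 15. The share of all genes with such signs was not taken at this resolution or between the 2 WT KC libraries. It was also not taken for the counts within a tissue. Over the 20 clusters it was taken only for the counts of Id2 and Cebpa. The other counts therefore do not set these genes apart.

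**Figure D4:**
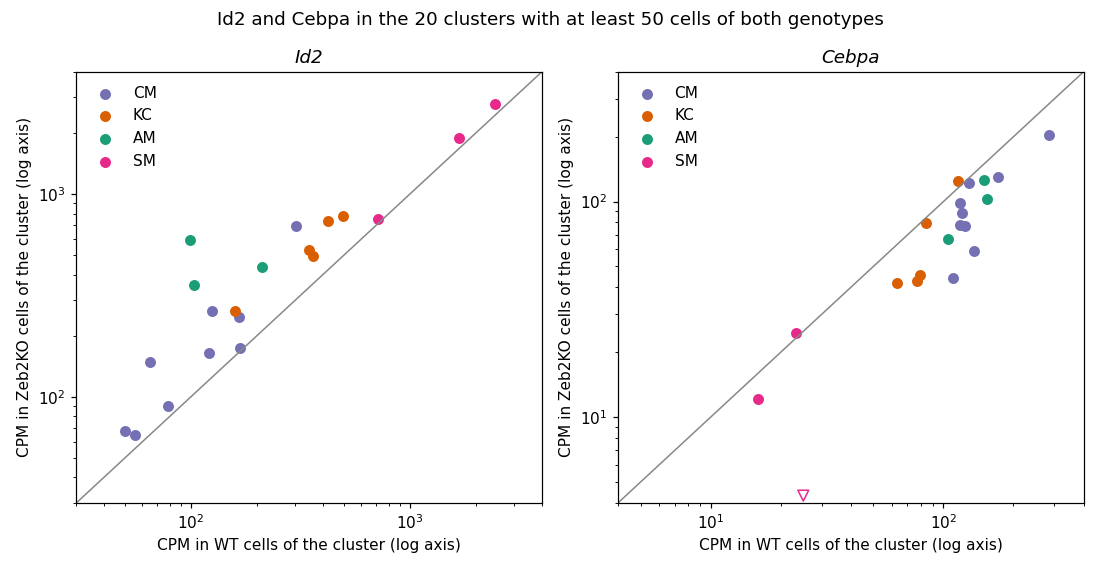
Level of Id2 and Cebpa in the WT cells (x axis, CPM, log) and Zeb2KO cells (y axis, CPM, log) of the 20 clusters with at least 50 cells of both genotypes, coloured by tissue, with the line of equality. All 20 points of Id2 lie above the line and 18 of 20 of Cebpa below it. The open triangle is an SM cluster with 0 Cebpa UMIs in its 56 Zeb2KO cells, drawn at the lower edge.

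A cluster was called apart where its share of Zeb2KO cells was at least 9 times its share of WT cells. Such clusters held 99.6% of Zeb2KO microglia, 25.5% of CMs, 78.6% of KCs, 90.6% of AMs and 78.8% of SMs, and 0.813% to 1.72% of WT cells. The CM share depended on the clustering and was 49.1% at resolution 1.5, while the shares of the other 4 tissues stayed within 1 percentage point. In CMs, Id2 was at 621 CPM in them, 133 CPM in the other Zeb2KO CMs and 108 CPM in WT, and Maf was at 232, 604 and 469.8 CPM. Cebpa was at 64.3, 112 and 172 CPM in the same groups. Of the 889 Zeb2KO CMs apart, 762 lay in the cluster led by Ms4a1, Hp and AF067061. Its mean macrophage-marker value, -1.05 on the log2 scale, was the lowest of the CM clusters kept. The rule for clusters apart rests on cell shares and does not separate Zeb2-/- from Zeb2+/- cells, both of which the study found in liver and lung. It defines KCs with Cx3cr1 and Ccr2 as Zeb2+/- cells, and the KC cluster led by Mmp12, Cx3cr1 and Ccr2 was among those apart. In KCs and AMs the other Zeb2KO cells lay between WT and the cells apart for Id1 and Id2. Id1 was at 118, 179 and 468 CPM in WT, other Zeb2KO and apart KCs and at 76.2, 263 and 455 CPM in AMs, and Id2 was at 345, 592 and 982 CPM and at 163, 578 and 994 CPM. Cebpa differed from that order in KCs, where the other Zeb2KO cells had 55.1 CPM and the cells apart 85.0 CPM, against 98.8 CPM in WT. In AMs (71.5, 76.2 and 169.9 CPM) and SMs (12.3, 15.5 and 22.9 CPM) the other Zeb2KO cells also had the lowest level, with intervals that overlapped those of the cells apart. Set against all WT cells, the cells apart of AMs had 5 of the 9 genes called (12.6% of all genes considered), those of KCs 3 (5.96%), of CMs 3 (10.5%), of microglia 1 (8.39%) and of SMs 0 (3.74%). The 3 in CMs were Cebpa at -1.41, Id2 at 2.51 and Maf at -1.02 on the log2 scale. At resolution 1.5 only Id2 was called in CM cells apart (3.35% of genes), at 1.74, with Cebpa at -0.96 and Maf at -0.011.

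**Figure D5:**
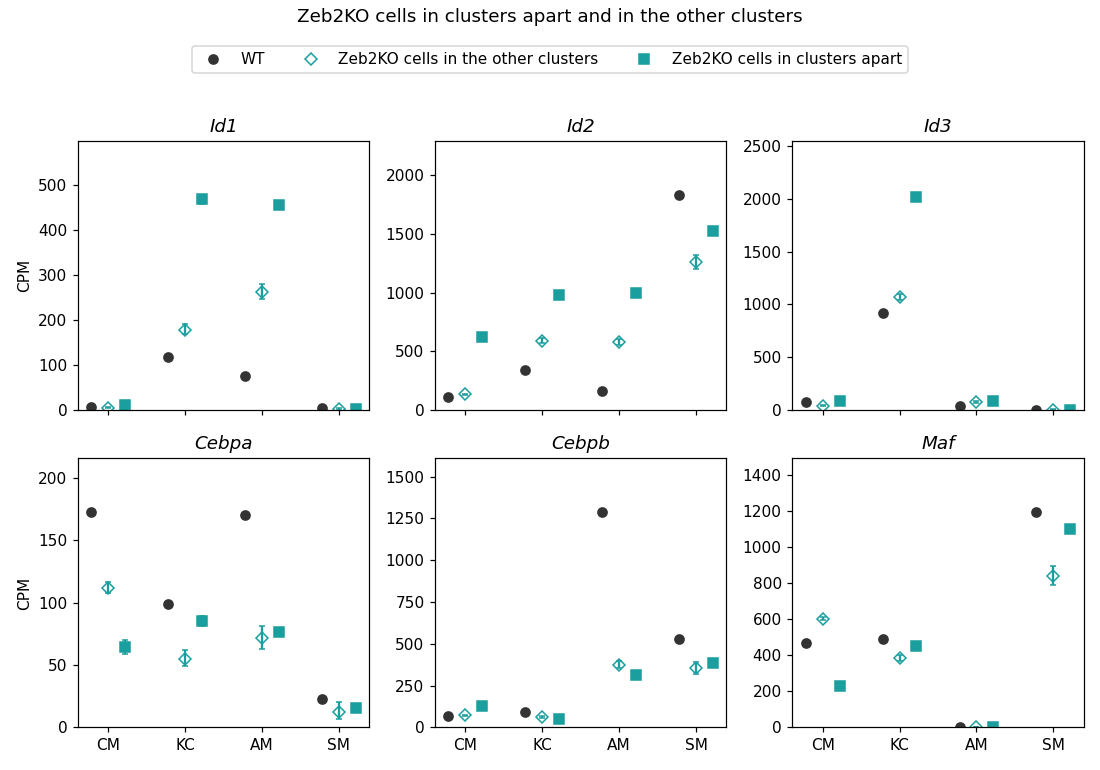
Level in CPM of 6 of the genes in WT cells (circles), in Zeb2KO cells of clusters apart (filled squares) and in the other Zeb2KO cells (open diamonds), with exact 95% Poisson intervals on the Zeb2KO values. Microglia are not drawn, since only 13 Zeb2KO cells lay outside the clusters apart. Id2 in CMs stands at 621 CPM in the cells apart and 133 CPM in the others.

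Levels also varied inside a genotype, compared here over clusters with at least 50 cells of a library. In WT microglia, Id2 ran from 101 CPM to 881 CPM, the latter in 67 cells led by Lgals3, Arc and Nes, and in Zeb2KO microglia it was highest, at 953 CPM, in 127 cells led by Gpnmb, Spp1 and Mmp12, which also had the most Irf8 (1005 CPM) and Cebpa (440 CPM) and the least Spi1 (362 CPM) and Maf (161 CPM). In CMs, the cluster led by Ms4a1, Hp and AF067061 had the least Maf and the most Id2 in both genotypes, 193 and 302 CPM in 61 WT cells and 182 and 699 CPM in 762 Zeb2KO cells. The CM cluster led by Lyve1, Ednrb and Retnla had the most Maf (805 and 918 CPM) and the least Irf8 (153 and 105 CPM). The liver cells kept include a cluster led by Alox15, Prg4 and Slpi, with no KC marker among its 10 leading genes, which made 1.57% of the WT and 1.06% of the Zeb2KO library. Its WT cells had Spi1 at 357 CPM, Maf at 82.7 CPM and Id3 at 98.5 CPM, the lowest of the 7 WT liver clusters compared. In Zeb2KO KCs, the 1926 cells led by Ms4a1, Ddit4 and Siglecf had the most of all 3 Id genes, 610 CPM for Id1, 1216 CPM for Id2 and 2364 CPM for Id3. Among Zeb2KO AMs the cluster led by C1qa, C1qb and C1qc had the most Maf and Id2 (1437 CPM) and the least Cebpb (119 CPM). The AM markers summed to 3621 CPM in its Zeb2KO cells and 23950 CPM in the other Zeb2KO AMs, and the macrophage markers to 36135 and 24301 CPM.

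The counts of listed genes below stand beside the shares of all genes past 2-fold given above, which were 1.64% for CMs, 3.49% for SMs, 4.82% for KCs, 8.34% for microglia and 11.7% for AMs. These counts were made on CPM and not repeated with TMM factors, so calls near the limit may depend on the scaling. The E proteins that ID factors bind, Tcf3, Tcf4 and Tcf12, had 0 of 3 called in microglia, KCs and SMs, 0 of 2 considered in CMs, and 1 of 3 in AMs, where Tcf4 was at 30.7 CPM in WT and 10.6 CPM in Zeb2KO. Other members of the same factor families (19 measured) had 2 of 12 considered called in microglia (Irf7 and Maff, higher), 1 of 11 in KCs (Mafg, higher), 1 of 10 in AMs (Irf1, lower), and 0 of 15 and 0 of 13 in CMs and SMs. Of 16 BMP and TGF-beta signalling genes, 2 of 10 considered were called in microglia, 1 of 9 in CMs, 2 of 9 in AMs and 0 of 9 in KCs and SMs, all of them lower. Acvrl1, an endothelial-type BMP receptor, was at 28.9 and 6.20 CPM in WT and Zeb2KO microglia and 25.3 and 9.93 CPM in AMs, and Eng, its coreceptor, was at 87.7 and 14.2 CPM in microglia and 25.8 and 7.55 CPM in CMs. The 7 endothelial markers summed to 13.1 and 4.67 CPM in WT and Zeb2KO microglia, 3.24 and 1.31 CPM in AMs and 11.2 and 7.97 CPM in CMs. All 7 were lower in Zeb2KO AMs, but in CMs 3 were higher (Cdh5, Ptprb and Clec14a), and in microglia 3 were at 0 in both libraries. Their part was not tested.

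Genes known as targets of the lineage factors were counted in the same way. For PU.1, 8 of 8 were considered throughout, with 2 higher and 1 lower in microglia, 1 higher and 2 lower in AMs, 1 higher in SMs, and 0 called in CMs and KCs. Itgam, which encodes CD11b, was at 0.729 CPM in WT and 43.6 CPM in Zeb2KO AMs and at 4.81 and 58.1 CPM in SMs. Of 5 IRF8 targets considered, 1 was higher in microglia, 1 higher in AMs, 1 lower in SMs, and 0 were called in CMs and KCs. The one higher in microglia is also in the PU.1 list, and the one lower in SMs is also among the tissue factors below. MAF targets had 3 of 4 higher and 1 lower in AMs, 1 of 6 lower in CMs and in KCs, 1 higher and 1 lower of 6 in SMs, and 0 of 3 in microglia. The 3 higher in AMs were the complement genes C1qa, C1qb and C1qc, which lead a cluster of 218 Zeb2KO and 5 WT cells. C1qa was at 60.5 CPM in all Zeb2KO AMs, 1241 CPM in that cluster and 1.44 CPM without it, so without it none of the 3 reached 20 CPM, and Mrc1, lower, was the 1 target considered, beside 11.5% of all genes called. Maf itself then differed by 0.069 in AMs in place of 0.85, and the same 5 of the 9 genes were called. Il10, the target higher in SMs, differed by 1.05 there and by 0.47 without the SM cluster led by S100a8, S100a9 and Camp. Cd163, a haemoglobin scavenger receptor, was at 80.5 and 26.9 CPM in WT and Zeb2KO CMs, 333 and 53.4 CPM in KCs, and 396 and 26.7 CPM in SMs. C/EBP targets had 2 of 3 lower in microglia, 2 of 5 higher in CMs, 3 higher and 1 lower of 5 in AMs, 1 of 3 lower in SMs and 0 of 4 in KCs. Cd14, the lipopolysaccharide coreceptor, was at 532 and 264 CPM in microglia, 142 and 692 CPM in AMs and 216 and 86.4 CPM in SMs, and Lcn2, an iron-siderophore carrier, was at 1.41 and 56.1 CPM in CMs and 0.0729 and 75.2 CPM in AMs. Neutrophil markers (7 of 7 measured) summed to 24.6 CPM in WT and 240.1 CPM in Zeb2KO AMs, 2.24 and 30.7 CPM in CMs, 1.05 and 96.2 CPM in microglia, 68.6 and 51.1 CPM in SMs, and 1.85 and 2.26 CPM in KCs. Without the SM cluster led by S100a8, S100a9 and Camp, the sums were 3.18 CPM in WT and 5.41 CPM in Zeb2KO SMs. Few of the markers carried the sums of Zeb2KO microglia, AMs and CMs. Cxcr2 was the one marker above 0 in Zeb2KO microglia (96.2 CPM), Cxcr2 and Mmp8 made 178 and 58.2 CPM of the sum in Zeb2KO AMs and Mmp8 27.4 CPM in Zeb2KO CMs, while Camp and Ngp were at 0 in all 3. Their part in the values of Itgam and Lcn2 was not tested.

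The 13 listed tissue factors are not all confined to a single tissue. Of them, Bhlhe40 was called in 3 tissues, at 1.46 and 25.6 CPM in WT and Zeb2KO microglia, 31.2 and 79.5 CPM in CMs, and 15.4 and 37.9 CPM in KCs. Klf2 was at 113 and 295 CPM in AMs and 666 and 261 CPM in SMs. Among those considered, KCs had 2 of 8 called, AMs 1 of 8, CMs 1 of 9 and microglia 1 of 7, all higher, and SMs 2 of 9, both lower. Immediate early and heat shock genes had 6 of 10 higher in KCs, 3 higher and 2 lower in AMs, 4 lower in SMs, 1 higher in microglia and 0 called in CMs. Against the Nr1h3fl/fl WT library 10 of 10 were higher in Zeb2KO KCs, beside 8.33% of all genes called. Between the 2 WT KC libraries 4 of 8 considered were lower in the Nr1h3fl/fl one, beside 1.35% called. Fos, an AP-1 subunit, differed by 1.09 in KCs and -1.30 in SMs, Egr1 by 1.10 in KCs and -2.24 in AMs, Atf3 by 1.59, 1.01 and -1.30 in KCs, AMs and SMs, Nr4a1 by 1.98, 1.52 and -1.30 in microglia, KCs and AMs, and the heat shock genes Hspa1a and Hspa1b by 3.72 and 2.68 in AMs and -1.19 and -1.44 in SMs, all on the log2 scale. Cell cycle genes had 7 of 7 considered higher in KCs, but 3 of 7 against the Nr1h3fl/fl WT library. In CMs 0 of 7 and in AMs 0 of 5 were called, and 1 was considered in microglia and 0 in SMs. In the common edgeR test 0 genes of every list named here passed.

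Over the 11 libraries and 8024 genes, the gene whose log2 level followed each factor most closely (Pearson's r, given as a description over libraries that share tissue, depth and sequencer) was Mrpl15 for Spi1 (0.967), Nos1ap for Irf8 (0.972), Prkcb for Maf (0.991), Bag6 for Cebpa (0.969), Ppp2r5c for Cebpb (0.976), Pik3r5 for Runx1 (0.947), Jup for Id2 (0.913) and Atp5o for Id3 (0.970). For Id1 it was Eif2s3y (0.949), a Y-linked gene present only in the KC and AM libraries, the tissues in which Id1 was high. Next came Nans and Phf5a for Spi1, Klhl6 and Gtpbp6 for Irf8, Tlr1 and Etv5 for Maf, Gfer and Phka2 for Cebpa, Gnaq for Cebpb, Bcl2a1b for Runx1, Myl12b and Rpl7a-ps5 for Id1, Stard5 and Plpp3 for Id2, and Ube2l3 and Mrpl42 for Id3.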

How the data were processed

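The deposited files are tables of whole-number UMI counts per gene and cell barcode, 1 per library, which the authors made from 10x reads with Cell Ranger on the mm10 mouse genome. Library totals are given in the report. Starting from these counts, barcodes more than 3 median absolute deviations from their library's median in UMIs, genes or mitochondrial share were left out. Cells were clustered per tissue with scanpy 1.11.5 (leidenalg 0.10.2, resolution 0.8) without the 9 genes, the gene lists, Zeb2 and mitochondrial, ribosomal, immunoglobulin and sex-linked genes. Clusters led by markers of other cell types were left out. Scrublet called at most 0.0655% of a library's cells, too few to have worked, so no cell was left out as a doublet, and removing the 5% with the highest scores was an alternative. Counts were summed per library and divided by the library total (CPM). Across tissues, sums were tested with edgeR 4.0.16 (R 4.3.3) by its quasi-likelihood test, tissue plus genotype, TMM factors and Benjamini-Hochberg adjustment at 0.05. DESeq2 1.42.0 was an alternative. With 1 library per tissue and genotype, a tissue allowed no test: a gene was called at a log2 ratio of CPM + 1 of at least 1 in size, among genes at 20 CPM or more in the higher library. Intervals are exact 95% Poisson or Clopper-Pearson intervals and cover counting error only. The tests were tried on simulated counts first. The 9 genes, the lists and the rule for named list genes (called in at least 2 tissues) were chosen with earlier results of these data known. The calls within tissues used no TMM factor, and the alternative with TMM factors changed which genes were called in microglia and AMs. These alternatives were chosen after seeing the data: the AM cluster led by C1qa, C1qb and C1qc and the SM cluster led by S100a8, S100a9 and Camp left out, a milder exclusion of clusters, the pairs of each sequencer alone, and a finer clustering (resolution 1.5) for the clusters held by both genotypes. Some genes are not reported here.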

Additional observations from a re-analysis of the deposited data

How the results depend on the processing

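With a 1.5-fold limit in place of 2-fold, AMs had 6 of the 9 genes called, KCs 4, microglia and CMs 3 each and SMs 1, beside 5.34% to 35.5% of all genes, and with the Nr1h3fl/fl WT library as the liver control 5 were called in KCs. With TMM factors Id2 was called in microglia in place of Cebpa, and AMs had 4 called, without Cebpa. In CM cells apart, 1 was called at resolution 1.5 (Id2), with Cebpa and Maf no longer past 2-fold. Without dividing cells Id3 in KCs was past 2-fold, at 1.03 on the log2 scale. DESeq2 called 2 genes in the common test. The tissue test called 4 of 9 with the NextSeq500 pairs only, beside 26.3% of all genes, and 7 to 9 when each pair was left out in turn, beside at least 63.8%. The common log2 change of Spi1 became 0.043 with the Nr1h3fl/fl WT liver library, -0.082 to 0.023 when each pair was left out (0.023 without the microglia pair) and 0.031 in the NextSeq500 pairs, and that of Maf -0.0043 with the Nr1h3fl/fl WT liver library, -0.12 to 0.27 when each pair was left out (-0.12 without the AM pair) and -0.092 in the HiSeq pairs. Leaving out each pair gave -0.20 to 0.028 for Runx1 and -0.075 to 0.57 for Id3, the sign changing only without the AM pair, and in the HiSeq pairs Cebpb became 0.21, Id1 -0.28 and Id3 -0.58. The cause was not tested. Tissue paired the libraries in the common test, and with no replicate block Maf became -0.12 and 0 of the 9 genes had an unadjusted p under 0.05. None of the 9 genes passed the adjusted threshold of the common edgeR test under any of these settings. Within tissues, the log2 ratio changed sign under an alternative for Spi1 in KCs, AMs and SMs, Runx1 in KCs, and Cebpa between the WT KC libraries. Depth limits Id1 and Id3 in microglia and SMs and Maf in AMs, each at 8 to 86 UMIs per library.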
